A study of Mus musculus with 6 samples.

Results

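The small leucine-rich proteoglycans are a family of secreted matrix proteins, and 10 of their genes, taken by symbol, are described here out of the 55484 genes in the deposited tables: Dcn, Bgn, Lum, Fmod, Omd, Ogn, Aspn, Prelp, Ecm2 and Podn. Each symbol matched 1 gene, all 10 were among the 15508 genes that the authors tested, and none was lost to a filter on low values. RNA came from femoral bone, and the 6 libraries form 2 groups of 3, all from male C57BL/6 mice of wild-type genotype. Sedentary mice lived singly in a cage without a wheel, and running mice lived singly with free use of a running wheel. Both groups ate normal chow, entered the study at 6 weeks of age, were kept for 6 weeks and were 12 weeks old at collection. The labels do not say whether marrow, muscle, tendon insertions or periosteum were removed. The design asks how voluntary running changes transcripts of the femur, and the title of the study places that question in the response of osteocytes to mechanical load.

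Proteins of this family have a core of leucine-rich repeats that binds collagen fibrils and limits how fibrils grow and fuse. Many carry chains of chondroitin, dermatan or keratan sulfate, and some also bind TGF-beta, bone morphogenetic proteins or other signals held in the matrix. In the skeleton they are made by osteoblasts, chondrocytes and the fibroblasts of tendon, ligament and periosteum, and mice that lack biglycan lose bone mass. Decorin, biglycan and asporin form class I, fibromodulin, lumican, PRELP and osteomodulin class II, and osteoglycin belongs to class III. Podocan belongs to class V, and ECM2 has a repeat region related to that of decorin.

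Levels are in FPKM, the fragments counted for a gene divided by its length and by the fragments of the library, which sets genes of different length on 1 scale. Both tables give a pooled value for each group and the authors' interval around it, so values of single mice, and an SD between mice, cannot be shown. In the deposited statistic the half-width of that interval counts as 2 standard errors: the SE from the intervals lay within 1% of the log2 fold divided by the statistic in 15490 of 15490 genes with both values above 0. Each ratio below is running over sedentary, and the range after it spans 2 SE on either side on the log scale. It shows the error that the authors' model assigns to the group values. Genes with q under 0.05 in the authors' deposited table are termed called. This held for 0.941% of the 15508 tested genes, of which those higher in running mice were 0.445% of the tested genes and those lower 0.497%. Bone markers were present, with Bglap (osteocalcin) at 3157 and 3184 FPKM and Sost (sclerostin) at 47.4 and 66.2 FPKM in sedentary and running mice. Neutrophil and skeletal muscle genes were also high, 7 listed genes of each kind summing to 50919 and 43156 FPKM and to 1502 and 1797 FPKM, so the RNA also held transcripts of these cells.

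Fmod and Prelp rose in running mice, and the other 8 members were not called. Both encode class II proteins and lie in the same stretch of chromosome 1. Fmod spans chromosome 1, 134037254 to 134048277, on the plus strand (GRCm38). Prelp spans 133910304 to 133921414 on the minus strand, which leaves 115.8 kb between them. Both have 3 exons, of which 2 are coding. The bases upstream of their RefSeq starts (build GRCm38.p6) are shown because these are the called members, beside those of Bgn as an abundant uncalled class I member and of Ogn from the chromosome 13 cluster. Each reads 5′ to 3′ on the strand of its gene, with E-boxes (CANNTG) and TATA boxes (TATAAA) in capitals. The windows are chr1:134037004-134037253 for Fmod, chr1:133921415-133921651 for Prelp, chrX:73483351-73483600 for Bgn and chr13:49607765-49608014 for Ogn.
Fmod: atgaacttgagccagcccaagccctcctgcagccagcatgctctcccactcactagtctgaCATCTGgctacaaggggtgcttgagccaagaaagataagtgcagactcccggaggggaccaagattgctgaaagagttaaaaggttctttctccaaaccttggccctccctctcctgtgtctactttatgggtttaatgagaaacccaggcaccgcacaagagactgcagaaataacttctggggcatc
Prelp: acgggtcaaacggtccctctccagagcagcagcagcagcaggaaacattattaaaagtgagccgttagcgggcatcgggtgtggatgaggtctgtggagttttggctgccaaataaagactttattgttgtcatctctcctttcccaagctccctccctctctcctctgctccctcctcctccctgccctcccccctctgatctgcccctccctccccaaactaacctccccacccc
Bgn: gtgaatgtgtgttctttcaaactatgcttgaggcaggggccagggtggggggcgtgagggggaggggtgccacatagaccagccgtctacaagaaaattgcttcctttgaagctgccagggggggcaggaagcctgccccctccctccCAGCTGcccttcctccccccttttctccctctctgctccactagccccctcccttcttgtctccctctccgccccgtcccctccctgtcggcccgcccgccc
Ogn: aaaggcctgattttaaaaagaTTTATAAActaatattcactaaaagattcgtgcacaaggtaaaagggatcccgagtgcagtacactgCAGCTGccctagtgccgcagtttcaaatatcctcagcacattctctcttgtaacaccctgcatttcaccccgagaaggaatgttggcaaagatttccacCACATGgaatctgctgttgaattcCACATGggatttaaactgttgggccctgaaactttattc

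These upstream windows had no common layout. The Prelp window held neither capitalised motif. The Fmod window held 1 E-box, 189 bases before the start. Ogn had 3 E-boxes, the nearest 39 bases before the start, and overlapping TATAAA matches on both strands, 229 and 227 bases before it. GC content was 64.4% for Bgn, 56.5% for Prelp, 51.2% for Fmod and 42.0% for Ogn. The RefSeq table matched 8 of the 10 members (not Dcn and Lum), and both windows of Podn lie inside its longer GENCODE gene and are not counted here, which leaves 7. In 250 bases upstream, searched on both strands, CANNTG was found in 4 of the 7 members and in 66.2% of 32851 promoters of the table, and TATAAA in 2 of 7 members and in 12.4% of promoters. GGGCGG (GC box) was found in 2 of 7 members and 32.7% of promoters. GGAATG, a TEAD motif, and TGTGGT, a RUNX motif, each occurred in 1 of the 7 members, Ogn, and in 12.6% and 14.0% of promoters. The AP-1 motif TGANTCA (6.75% of promoters) and the SMAD motif GTCTAGAC (0.167%) were found in none of the 7.

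Decorin and biglycan transcripts dominated the family. Dcn (chromosome 10, 97479609 to 97518143) stood at 371 FPKM (interval 302 to 440) in sedentary and 431 FPKM (350 to 513) in running mice. Bgn (chromosome X, 73483602 to 73495933) stood at 359 FPKM (289 to 429) and 417 FPKM (334 to 500). In both groups their intervals overlapped each other, so their order cannot be told. Together they made up 75.1% of the summed FPKM of the 10 members in sedentary and 74.1% in running mice. Lum (chromosome 10, 97565128 to 97572703), which lies 47.0 kb from Dcn, followed at 131 and 149 FPKM, with intervals clear of Bgn above and of the next gene below. Dcn ranked above 98.8% of all tested genes by mean level, Bgn likewise above 98.8%, and Lum above 96.5%.

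A middle tier held Omd, Fmod, Aspn and Ogn. In sedentary mice these stood at 28.6, 24.2, 24.3 and 18.1 FPKM, and in running mice at 35.4, 34.4, 31.7 and 22.7 FPKM. Neighbours in this order had overlapping intervals in both groups, and Fmod and Aspn traded places between groups, the only change of order among the 10. Prelp followed at 10.6 and 16.3 FPKM, with an interval that overlapped that of Ogn and lay clear of Ecm2. Ecm2 (3.62 and 4.99 FPKM) and Podn (1.44 and 2.79 FPKM) were lowest, with overlapping intervals. From Dcn to Podn the sedentary levels spanned a ratio of 258, and the 10 genes summed to 971 FPKM in sedentary and 1145 FPKM in running mice, a ratio of 1.18.

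**Figure D1:**
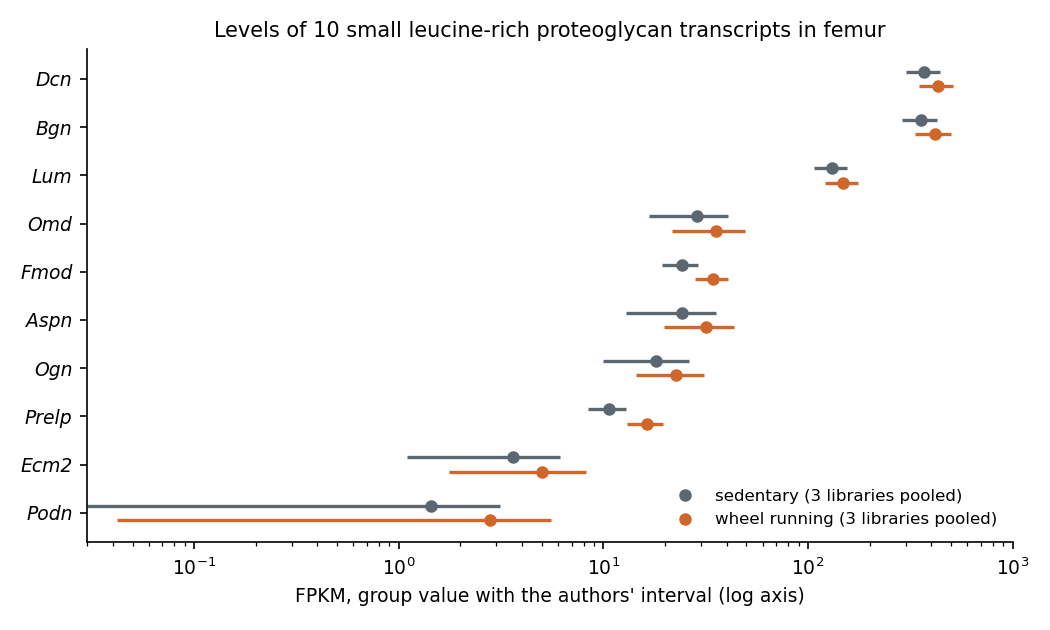
Group FPKM (log axis) of the 10 members in sedentary (grey) and wheel running (orange) mice, with 1 pooled value per group as a point and the authors' interval as a line; the lower bound of Podn in sedentary mice is 0 and leaves the axis. The running value lies to the right of the sedentary value for each member, and the intervals are apart for Prelp alone.

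Each of the 10 members was higher in running mice by value, with ratios from 1.14 for Lum to 1.95 for Podn. A positive log2 fold was found in 10 of 10 members, against 48.2% of all tested genes. Their median log2 fold was 0.35 on the log2(FPKM + 0.1) scale, and that of all tested genes was -0.0067. The 5 members that share no locus with another tested gene had a lower median of 0.22. In whole-bone RNA a difference in the number of cells that express a gene and a difference in RNA per cell cannot be told apart. The members also share cell types and neighbouring positions, so their directions are not independent of each other.

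Among class II members, Prelp had the larger ratio of the called pair. Its protein has a basic amino-terminal region that binds heparan sulfate and is thought to tie basement membranes to the collagen beneath. Prelp rose from 10.6 FPKM (8.39 to 12.9) to 16.3 FPKM (13.01 to 19.5), a ratio of 1.53 (1.14 to 2.04) and a log2 fold of 0.61. The intervals of the groups were apart. Of all tested genes, 0.123% were both called higher and had intervals apart. Fmod encodes fibromodulin, a keratan sulfate proteoglycan with sulfated tyrosines that binds collagen and affects its cross-linking, best known from tendon. Fmod rose from 24.2 FPKM (19.4 to 29.0) to 34.4 FPKM (27.9 to 40.8), a ratio of 1.42 (1.08 to 1.87) and a log2 fold of 0.50. Its intervals overlapped slightly. In the authors' deposited table both genes had p = 5e-05 and q = 0.00718, the smallest values the table holds, shared by 108 genes. Their deposited test statistics were 2.92 for Prelp and 2.57 for Fmod, and the sources used here do not give how that p was obtained from them. The calls rest on the deposited p and the ranges on the statistic, so the 2 need not match.

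Lumican and osteomodulin, the remaining class II members, were not called. Lumican shares a collagen-binding site with fibromodulin and is common in cornea, skin and bone matrix. Lum differed by a ratio of 1.14 (0.880 to 1.47), the smallest of the 10, with a q of 0.998 in the authors' deposited table. Osteomodulin, also called osteoadherin, is an acidic keratan sulfate proteoglycan of mineralised matrix made by osteoblasts. Omd stood at 28.6 FPKM (16.7 to 40.5) and 35.4 FPKM (21.6 to 49.3), a ratio of 1.24 with a range from 0.701 to 2.19. The range of Omd contains the ratios of both called genes, and that of Lum contains the ratio of Fmod but not that of Prelp.

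Of the class I members, Dcn and Bgn had small ratios, and Aspn had a larger ratio with less precision. Decorin carries a chondroitin or dermatan sulfate chain, decorates collagen fibrils and binds TGF-beta. Dcn had a ratio of 1.16 (0.892 to 1.52). Its p in the authors' deposited table was 0.0468 before adjustment and its q was 0.868, so it was not called. With Prelp and Fmod this made 3 of 10 members with an unadjusted p under 0.05 and a higher value in running mice, as 3.42% of all tested genes had. Biglycan, the close relative of decorin that is abundant in bone, had almost the same ratio of 1.16 (0.879 to 1.54), with q = 0.934 in the authors' deposited table. Asporin has an aspartate-rich amino terminus, lacks the glycosaminoglycan chain of its relatives and binds TGF-beta and collagen. Aspn stood at 24.3 FPKM (12.97 to 35.7) and 31.7 FPKM (19.9 to 43.5), a ratio of 1.30 (0.717 to 2.37).

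The remaining 3 members come from other branches of the family. Osteoglycin, also called mimecan, is a small proteoglycan first purified from bone. Ogn stood at 18.1 FPKM (10.01 to 26.2) and 22.7 FPKM (14.5 to 30.9), a ratio of 1.25 (0.704 to 2.23). Ecm2 stood at 3.62 FPKM (1.09 to 6.14) and 4.99 FPKM (1.76 to 8.22), a ratio of 1.38 (0.532 to 3.57). Podocan, a collagen-binding protein known from the kidney glomerulus and the vessel wall, had the largest ratio and the widest error. Podn stood at 1.44 FPKM (0 to 3.12) and 2.79 FPKM (0.0420 to 5.54), a ratio of 1.95 with a range from 0.422 to 8.98. The intervals of the groups overlapped for each of these 3 genes, and none was called.

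**Figure D2:**
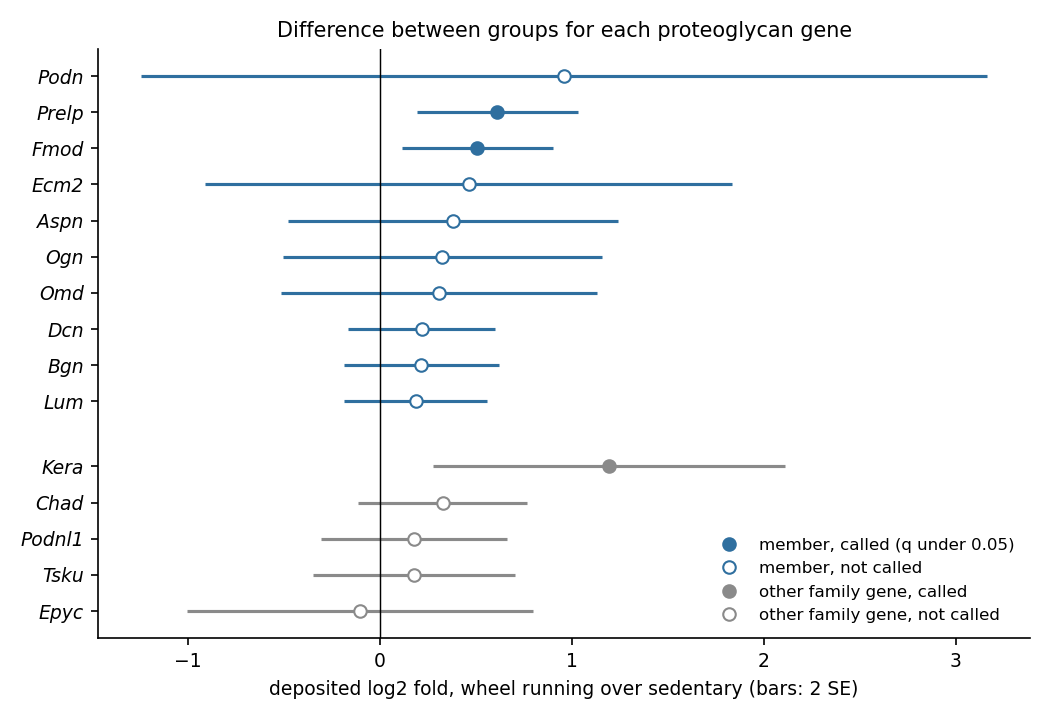
Deposited log2 fold (wheel running over sedentary) of the 10 members (blue) and of the 5 tested genes of the rest of the family (grey), with bars of 2 SE; filled points are called. Among members the bars of Prelp and Fmod alone lie clear of 0, and among the other family genes that of Kera.

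The ranges of all 10 members had a stretch in common, from 0.19 to 0.56 on the log2 scale. When the log2 folds of Fmod and Prelp were each set against those of the 8 uncalled members, the difference lay within 2 SE of 0 in 16 of 16 pairs, with the errors of both genes taken as independent. In each pair except Prelp with Dcn, Bgn and Lum, 2 SE were more than the whole log2 fold of the called gene. Such pairs would have contained 0 against an unchanged gene too. The count therefore does not show that called and uncalled members are alike. Prelp minus Lum was 0.43 with an SE of 0.28, a range from -0.14 to 0.99, and Fmod minus Lum was 0.32 with an SE of 0.27.

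Members differed in the error of their ratio as well as in the ratio. The 5 members that were the only tested gene at their locus (Dcn, Bgn, Lum, Fmod and Prelp) had SEs of the log2 fold from 0.19 to 0.21. The other 5 shared a locus entry with other tested genes, and their SEs ran from 0.41 for Omd to 1.103 for Podn. Ecm2, Aspn, Omd and Ogn lie in that order within 119.7 kb of chromosome 13, from 49504810 to 49624501, all on the plus strand. They lie inside Cenpp, a centromere protein gene on the minus strand, and the tables give 6 tested genes the same locus entry. Cenpp itself was listed at 13.4 and 13.8 FPKM. Annotated exons overlapped those of Cenpp by 7 bp for Aspn and by 0 bp for Omd, Ogn and Ecm2. Podn (chromosome 4, 108014791 to 108096445) shares its entry with Scp2, a sterol carrier gene on the same strand at 138 and 131 FPKM, with 0 bp of exon in common. Prelp shares 350 bp of exon with Gm15851, an antisense transcript listed at 0.547 and 0.522 FPKM.

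At like levels the difference in error was plain. Fmod, at a mean of 29.3 FPKM, had an SE of 0.20, whereas Omd at 32.0 FPKM had 0.41 and Aspn at 28.0 FPKM had 0.43. Among all tested genes with a mean FPKM of at least 1, the median SE was 0.30 for 9810 genes alone at their locus, 0.41 for 2762 genes that share it with 1 other tested gene and 0.59 for 1638 genes that share it with more. For each member that shares its locus, 2 SE are more than the log2 fold of Fmod or of Prelp. Whether the shared locus causes the wider intervals was not tested.

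**Figure D3:**
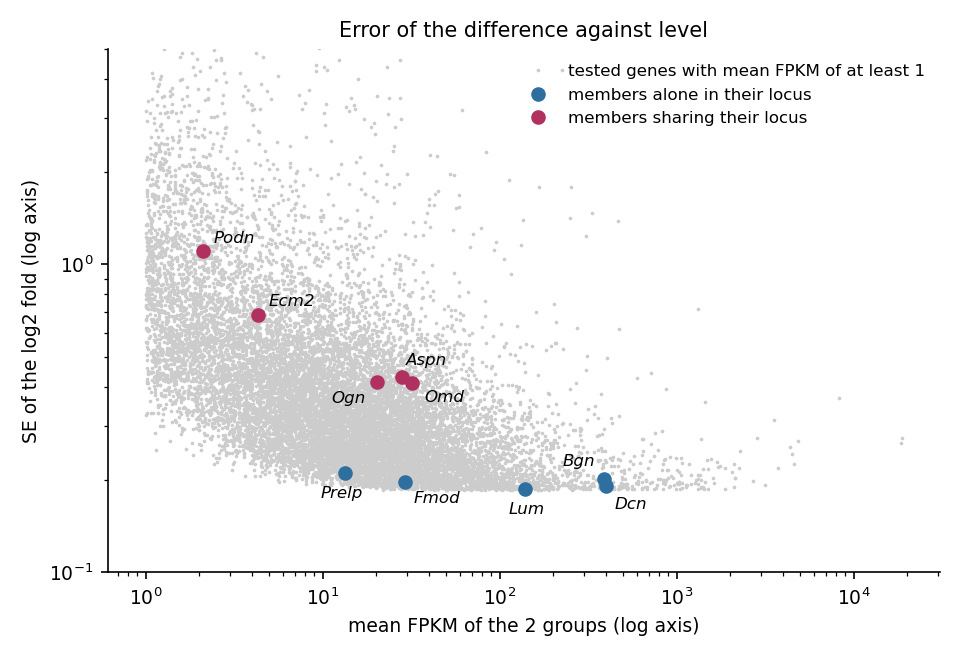
SE of the log2 fold against the mean FPKM of both groups (log axes) for tested genes with a mean FPKM of at least 1 (grey; 53 of 14210 lie above the axis), with members alone at their locus in blue and members that share it in red. Fmod lies low at the level where Omd and Aspn lie high.

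The 4 chromosome 13 members had ratios within a narrow band, 1.24 for Omd, 1.25 for Ogn, 1.30 for Aspn and 1.38 for Ecm2, and none was called. Protein-coding genes of other families next to the members stood lower or higher in running mice by value, and none of those tested was called. Nol8, the neighbour of Ogn, stood at 9.77 and 8.26 FPKM, Btg2, next to Fmod, at 66.9 and 64.9 FPKM, and Haus7, next to Bgn, at 11.5 and 11.2 FPKM. Echdc2, next to Podn, stood at 1.98 and 2.57 FPKM.

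Of the 7 other genes of the family, 5 were tested and Kera alone was called. Kera, on chromosome 10 between Lum and Epyc, encodes keratocan, a class II keratan sulfate proteoglycan of the cornea that is also found in tendon. Kera rose from 1.02 FPKM (0.496 to 1.55) to 2.33 FPKM (1.46 to 3.21), a ratio of 2.28 (1.21 to 4.31) with q = 0.0188 in the authors' deposited table. The intervals of the groups overlapped slightly. It lies 34.2 kb from Lum, whose ratio was 1.14. Chad, which encodes the cartilage and bone protein chondroadherin, stood at 52.3 and 65.6 FPKM, a ratio of 1.25 (0.925 to 1.70), and was not called. Tsku (8.65 and 9.78 FPKM), Podnl1 (8.50 and 9.62 FPKM) and Epyc (2.05 and 1.91 FPKM) were not called, and Optc and Nyx, under 0.3 FPKM in both groups, were not tested by the authors. All 3 called genes of the family, Fmod, Prelp and Kera, encode class II proteins, and 2 further tested genes of that class, Lum and Omd, were not called.

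The transcripts that act with these proteoglycans were not called in either direction. Of 22 genes for the linker and the chondroitin or dermatan sulfate chain, 14 had a positive log2 fold with a median of 0.05. None was called, and 1 had an unadjusted p under 0.05. Csgalnact2, at 33.7 and 32.6 FPKM, and B3gat3, at 33.3 and 32.9 FPKM, were the highest. None of 9 tested genes for keratan sulfate and tyrosine sulfation, which modify fibromodulin and its class, was called (median 0.02), and 0 had an unadjusted p under 0.05. Tpst2, a tyrosine sulfotransferase, stood at 33.7 and 30.8 FPKM, and B4galt1 at 45.3 and 44.1 FPKM. Among the collagens that the family binds, 9 of 12 tested genes had a positive log2 fold, with a median of 0.08, none called and 0 with an unadjusted p under 0.05. Col1a1 and Col1a2 have no estimate in the tables. Col11a2 stood at 307 and 328 FPKM and Col11a1 at 192 and 196 FPKM.

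Genes for collagen processing and cross-linking had a median of 0.23, and 15 of 16 tested genes had a positive log2 fold. None of them was called, and 4 had an unadjusted p under 0.05 with a higher value in running mice. Over all tested genes, 48.2% had a positive log2 fold and 3.42% a higher value with an unadjusted p under 0.05. The most expressed were Serpinh1, a collagen chaperone, at 224 and 233 FPKM, and Pcolce, an enhancer of procollagen cleavage, at 75.4 and 86.8 FPKM. Among 19 tested growth factors and receptors that bind the family, 14 had a positive log2 fold (median 0.11), 4 had an unadjusted p under 0.05 and none was called. Tgfb1 stood at 98.7 and 97.8 FPKM and Ccn2 at 80.1 and 104 FPKM. None of 10 tested proteases that cleave matrix was called (median -0.05), and 0 had an unadjusted p under 0.05, with Ctsk at 580 and 593 FPKM and Mmp9 at 439 and 427 FPKM.

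**Figure D4:**
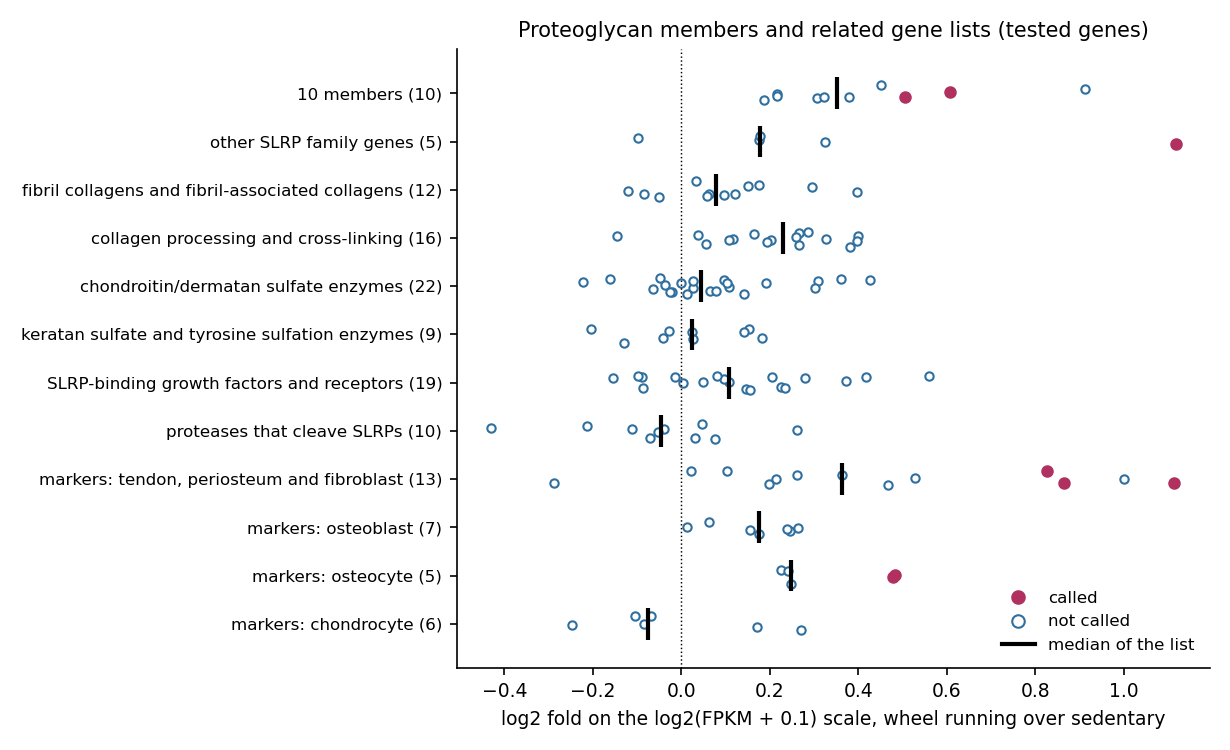
Log2 fold of each tested gene on the log2(FPKM + 0.1) scale for the 10 members and for related gene lists (number tested in brackets), with called genes in red and list medians as bars. The members' median is 0.35, that of the tendon, periosteum and fibroblast markers 0.36 and that of the osteocyte markers 0.25. Collagen processing genes have a median of 0.23, and the medians of the collagens and of the enzymes of both sulfated chains lie between 0.02 and 0.08. Not drawn are the large proteoglycans and the markers of adipocytes (median 0.59), skeletal muscle (0.27), marrow stroma (0.18), endothelium (0.15) and neutrophils (-0.17).

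Markers of tendon, periosteum and fibroblasts, cells that make these proteoglycans, were also mostly higher by value in running mice. Of 13 such markers, 12 had a positive log2 fold, with a median of 0.36 and sums of 161 FPKM in sedentary and 191 FPKM in running mice. Thbs4, Tnxb and Clec3b were called higher, as 0.445% of all tested genes were. A higher value with an unadjusted p under 0.05 was found in 6, and in 3.42% of all tested genes. Postn, the most expressed, stood at 70.7 and 81.2 FPKM. Pi16, the next, was the 1 marker that stood lower, at 29.4 and 24.0 FPKM. It had an unadjusted p of 0.028 in the authors' deposited table and was not called. None of the 13 was listed at 0. Scx, the transcription factor of tendon cells, stood at 1.49 and 2.10 FPKM, and Tnmd, a defining gene of mature tendon, at 5.09 and 5.17 FPKM, both uncalled. Osteoblast markers were positive in 7 of 7 with none called and 2 with an unadjusted p under 0.05 (median 0.18, sums of 6677 and 7058 FPKM), and osteocyte markers in 5 of 5 tested with Sost and Mepe called (median 0.25, sums of 338 and 429 FPKM, Pdpn listed at 0 in both groups). Chondrocyte markers were positive in 2 of 6 with none called (median -0.08, sums of 304 and 298 FPKM). Skeletal muscle markers were positive in 7 of 7 with Myh1 called (median 0.27), and adipocyte markers in 5 of 5 tested with Adipoq and Fabp4 called (median 0.59, sums of 267 and 386 FPKM). Marrow stroma markers were positive in 5 of 5 with Lepr called (median 0.18), endothelial markers in 4 of 5 with none called (median 0.15), and neutrophil markers in 0 of 7 with none called (median -0.17). Lepr was called narrowly, with q = 0.0478 in the authors' deposited table and a ratio of 1.42 (0.959 to 2.11). Its call was lost with q under 0.01 and when the statistic had to reach the normal value for p of 0.05. When intervals also had to be apart, the calls of Lepr, Sost, Mepe, Adipoq and Fabp4 were lost. Unadjusted p under 0.05 with higher values occurred in 4 osteocyte, 3 adipocyte, 2 skeletal muscle, 2 marrow stroma and 1 endothelial marker. It occurred in 0 chondrocyte and 0 neutrophil markers. What part these cell types had in the members' differences was not tested.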

How the data were processed

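Libraries were strand-specific and made from polyadenylated RNA, per the labels' protocols. Cufflinks 2.2.1, HISAT2 2.2.1, Trimmomatic 0.39, SAMtools 1.10 and the build GRCm38 are listed, without roles, per the submitters' processing notes. Library totals, and whether counting used strand, are not stated there. For each gene the authors deposited a FPKM value per group with an interval, a log2 fold, a test score (statistic), a p-value and a q-value, in the layout of Cuffdiff per the file headers. The tables hold 0 columns of single libraries, so the planned fits on libraries could not be made, and the authors' q under 0.05 was the call. Medians use log2(FPKM + 0.1), a scale on which changes of low genes look smaller than they are. SEs are the deposited log2 fold divided by the statistic. Simulated data tested the code for the SE from the intervals, used as a check, and the adjustment code, not these SEs. Genes listed as HIDATA (5, with no estimate) were left out of sums. Coordinates, exons and overlaps come from GENCODE vM21 (GRCm38), matched by Ensembl ID; upstream sequences come from RefSeq GRCm38.p6 and are printed without bases inside the GENCODE gene, while motifs were counted in 250 bases before each RefSeq start. Members and gene lists were chosen with earlier results of these data known, so no set test was made. The text names all members, the rest of the family and some of the neighbouring and overlapping genes. From each list it names the called genes and up to 2 of the most expressed uncalled ones. Scx, Tnmd, Pdpn and Bcan were named after their values were seen. The design text describes the 3 replicates of a group as mice. Work was done in Python 3.11.15 with pandas 2.3.3 and numpy 2.4.6.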

Additional observations from a re-analysis of the deposited data

How the results depend on the processing

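The count of 2 called members (Fmod and Prelp) was 2 with q under 0.01 and with q under 0.1. It was 2 with q recomputed over the 14488 tested genes of at least 1 FPKM. It was also 2 when the statistic had to reach the normal value for p of 0.05. All of these settings reuse the authors' p. Both genes have q = 0.00718 in the authors' deposited table and statistics of 2.92 and 2.57. The cut-offs on q and on the statistic therefore could not remove either gene. The count was 1 (Prelp) when the intervals also had to be apart. Among the 112 genes of the 8 lists of related genes, the 1 call (Kera) became 0 with q under 0.01 and 0 with separate intervals, and 2 with q under 0.1, when Ccn2 was added. The median log2 fold of the members ranged from 0.32 to 0.39 over the planned settings and was 0.22 without the members that share a locus, a setting chosen after seeing the data. All 60 alternative folds of single members stayed above 0. The 3 rescalings moved log2 folds by at most 0.04. No paired analysis was possible because each group has a single pooled value, and no library could be left out. The authors' intervals, not depth, are the only measure of precision here.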

Other observations

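Large proteoglycans were measured in the same libraries. Of 8 tested genes for large proteoglycans and hyaluronan binders, 5 had a positive log2 fold and none was called, with 1 unadjusted p under 0.05 (Bcan, at 0.889 and 0.446 FPKM). The sum of the list went from 484 to 461 FPKM. Srgn, the intracellular proteoglycan of blood cell granules, made up most of that sum at 405 and 354 FPKM. Prg4, which encodes the joint lubricant lubricin, stood at 17.8 and 36.1 FPKM, with a ratio range of 0.163 to 25.3.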
